A study of Mus musculus with 12 samples.

Results

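The genes described here were the dopamine receptors Drd1, Drd2 and Drd3, the adenosine receptor gene Adora2a, the orphan receptor gene Gpr6 and the neuropeptide precursor genes Penk, Tac1 and Pdyn. They were chosen by symbol, and all 8 were found among the 55335 genes measured. The assay was single-nucleus RNA sequencing of mouse forebrain at postnatal day 1, with 1 animal per library. There were 8 wild-type (WT) libraries, 5 from males and 3 from females, and 4 libraries heterozygous (Het) for the Myt1l S710fsX frameshift, 3 from males and 1 from a female, all on a C57BL/6 line. The frameshift is present in every cell of the animal, and the animals came from a few litters. How much striatum each dissection held is not known. The study's text calls the tissue of this age forebrain, but prefrontal cortex in 1 place and cortex where it discusses striatal neurons. That text also gives the sizes of the 2 genotype groups the other way round in 1 place, and the sample labels were followed here.

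Projection neurons of the striatum fall into a direct pathway, which carries the D1 receptor (Drd1) and makes substance P from Tac1 and dynorphin from Pdyn, and an indirect pathway, which carries the D2 receptor (Drd2), the adenosine receptor encoded by Adora2a, and Gpr6 and makes enkephalin from Penk. D1 receptors act through stimulatory G proteins and D2 receptors through inhibitory ones, so dopamine has opposite effects on cAMP in the 2 pathways. The D2 receptor is also made by cholinergic interneurons and by dopamine neurons, and the D3 receptor is best known from the ventral striatum and the islands of Calleja.

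In build GRCm38 with the GENCODE M21 annotation, the D1-pathway genes lie on 3 chromosomes, with Drd1 (ENSMUSG00000021478.6) at chr13:54051183-54055705 on the minus strand, Tac1 (ENSMUSG00000061762.12) at chr6:7554879-7565834 on the plus strand and Pdyn (ENSMUSG00000027400.11) at chr2:129686565-129699844 on the minus strand. Of the D2-pathway genes, Drd2 (ENSMUSG00000032259.8) lies at chr9:49340627-49408177 on the plus strand and Penk (ENSMUSG00000045573.9) at chr4:4133531-4138819 on the minus strand. Adora2a (ENSMUSG00000020178.6) at chr10:75316877-75334784 on the plus strand and Gpr6 (ENSMUSG00000046922.7) at chr10:41069977-41072285 on the minus strand share chromosome 10. Drd3 (ENSMUSG00000022705.5) lies at chr16:43754026-43822932 on the plus strand and overlaps a microRNA gene, Gm25996, on the same strand. Penk is overlapped by A830012C17Rik on the opposite strand.

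The promoter sequences of 4 genes, 2 from each pathway, are shown because the results turn on how these pathways part in single nuclei. RefSeq promoter windows of build GRCm38.p6, from 250 bases before to 50 bases after the annotated start, were found for 6 of the 8 genes (not for Adora2a or Penk). The stretches printed are those before the start that no annotated exon covers, 5′ to 3′ on the gene's strand. They are chr13:54055706-54055908 for Drd1 (minus strand), chr6:7554811-7554878 for Tac1 (plus strand), chr9:49340153-49340402 for Drd2 (plus strand) and chr10:41072291-41072540 for Gpr6 (minus strand). Capitals mark a cAMP response element (TGACGTCA) in Gpr6, its shorter form (CGTCA) in Tac1 and GC boxes (GGGCGG on either strand) in Drd2.
Drd1: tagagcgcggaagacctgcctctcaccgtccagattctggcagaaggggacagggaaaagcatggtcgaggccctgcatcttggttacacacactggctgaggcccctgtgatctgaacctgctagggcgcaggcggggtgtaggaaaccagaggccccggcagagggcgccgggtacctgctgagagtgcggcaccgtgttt
Tac1: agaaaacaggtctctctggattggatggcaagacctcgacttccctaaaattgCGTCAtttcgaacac
Drd2: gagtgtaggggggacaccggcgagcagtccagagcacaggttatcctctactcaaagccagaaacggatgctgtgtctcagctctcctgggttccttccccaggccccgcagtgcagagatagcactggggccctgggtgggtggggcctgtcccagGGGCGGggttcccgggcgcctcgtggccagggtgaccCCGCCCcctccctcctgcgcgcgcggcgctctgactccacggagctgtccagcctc
Gpr6: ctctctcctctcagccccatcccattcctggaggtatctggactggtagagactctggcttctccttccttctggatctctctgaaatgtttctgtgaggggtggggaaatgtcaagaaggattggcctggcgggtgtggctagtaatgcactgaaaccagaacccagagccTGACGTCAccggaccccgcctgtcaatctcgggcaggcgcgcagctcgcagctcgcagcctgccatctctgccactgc

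The 4 motifs searched on both strands over the 300-base windows were the cAMP response element TGACGTCA, its shorter form CGTCA, the GC box GGGCGG and the TATA box TATAAA. The cAMP response element TGACGTCA was found in 1 of the 6 windows, that of Gpr6, 78 bases before the start, and in 1.79% of all 32851 promoter windows. Its shorter form CGTCA, which lies within it on both strands, was found in Gpr6 and in Tac1 (197 and 43 bases before the start), and in 20.8% of all windows. The GC box was found in Drd2 at 93 and 56 bases before the start, in Tac1 at 107 bases before it and in Drd1 at 16 bases after it, and in 35.7% of all windows. TATAAA was in none of the 6 windows and in 13.6% of all. These matches describe the letters of the windows only.

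After the study's limits on nuclei (800 to 6000 UMIs, the unique molecular identifiers that count RNA molecules) and removal of doublets, 94170 of 126684 barcodes were kept, 54915 WT and 39255 Het, with a median of 1890 UMIs and 4447 to 10853 nuclei per library. No barcode was shared between libraries. Myt1l itself was at 1273 to 1613 CPM (UMIs of a gene per 1000000 UMIs of the same nuclei) over the WT libraries and at 1531, 1648, 1540 and 1559 CPM in the Het libraries, a log2 difference of 0.12 (SE 0.06, edgeR adjusted p = 0.554), so the level of the targeted gene did not separate the genotypes and does not check the labels. One library, WT 4, stood apart in the number of striatal nuclei it held (given below), and values without it are given beside those that it moved.

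Nuclei were put into classes by marker genes other than the 8 genes described. The striatal projection gate held 8902 nuclei (4486 WT, 4416 Het), 9.45% of those kept, with a median of 2007 UMIs and 11 UMIs of its 10 marker genes. It rested mainly on Rarb, a retinoic acid receptor gene seen in 94.4% of its nuclei, and Pde10a, a striatal phosphodiesterase gene seen in 94.9%, while the mature marker Ppp1r1b was seen in 3.49%. Of its nuclei, 916 (10.3%) had fewer than 5 marker UMIs and lay near the limit. The gate was then split by 5 genes for each side, again without the genes described. The D1 side held 4690 nuclei, 94.5% of them with Ebf1, the D2 side 1907, 85.5% of them with Grik3, and 613 nuclei carried genes of both sides and 1692 of neither. Nuclei in no class or in more than 1 made up 54.5% of those kept (51315), and are called ungated here.

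All genes but Drd3 were higher in striatal nuclei than in excitatory cortical-type nuclei of the same libraries, with 7 of 8 called at an adjusted p under 0.05. Over all 36034 genes tested in this comparison, 7.57% were called higher and 7.59% lower in striatal nuclei. Drd2 averaged 125 ± 32.3 CPM (SD, n = 12 libraries) in the striatal gate against 2.20 CPM in excitatory nuclei, and was higher in 12 of 12 libraries (mean log2(CPM + 1) difference 5.39, SD 0.73, exact sign-flip p = 0.000488, adjusted over all genes 0.00632). Tac1 averaged 46.9 ± 11.3 against 0.268 CPM (difference 5.28, SD 0.38, the same p values) and Drd1 21.2 ± 3.94 against 3.02 CPM (difference 2.52, SD 0.70, the same p values), each in 12 of 12 libraries. That p is the smallest 12 libraries can give.

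The lower-count genes followed the same order in 11 of 12 libraries, each with an exact p of 0.000977 and an adjusted p of 0.00976. The mean log2(CPM + 1) difference was 2.78 (SD 1.19) for Adora2a, 2.35 (SD 1.18) for Penk, 2.79 (SD 0.97) for Pdyn and 1.95 (SD 0.74) for Gpr6. Adding 1 CPM understates the change of genes this low. Drd3 was at 1.45 ± 1.53 CPM in the striatal gate and 0.659 CPM in excitatory nuclei, higher in 8 of 12 libraries (difference 0.45, SD 1.14, exact p = 0.193, adjusted p = 0.536), and was not called.

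**Figure D1:**
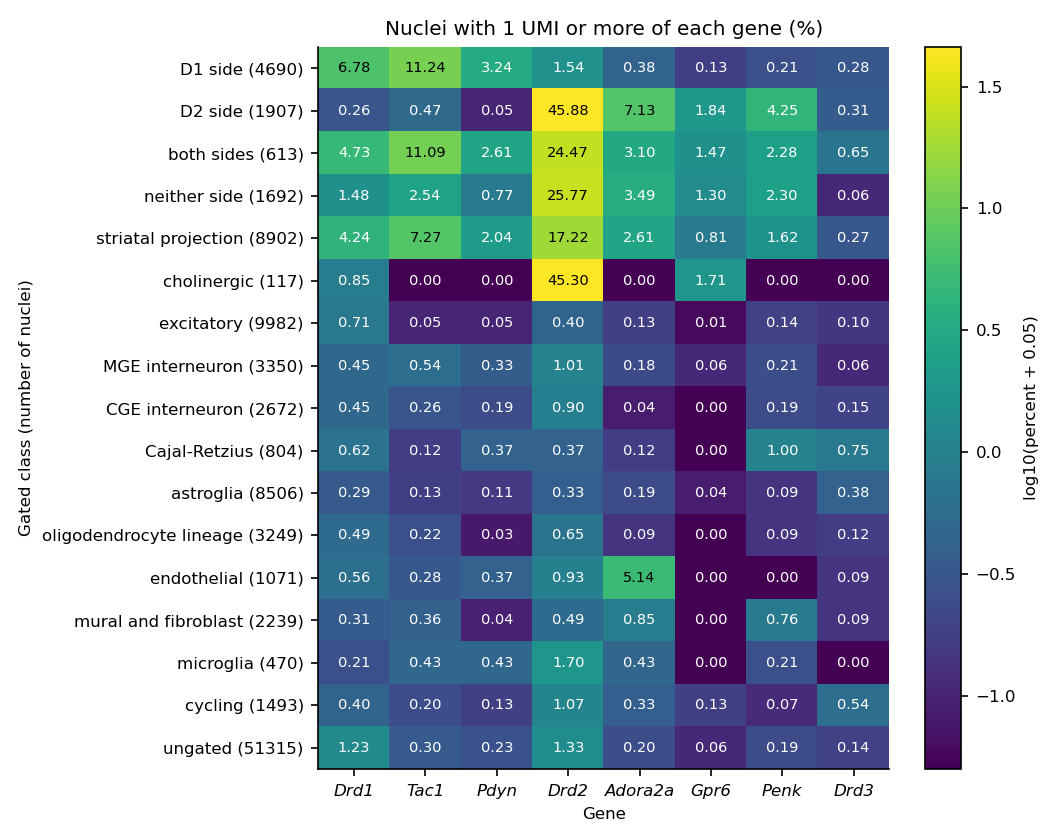
Percent of nuclei with at least 1 UMI of each gene (columns) in each marker-gated class (rows, with the number of nuclei), with colour on a log10 scale. Drd2 stands out in the D2 side (45.9%) and in cholinergic nuclei (45.3%), Drd1 and Tac1 in the D1 side (6.78% and 11.2%), and Adora2a in the D2 side (7.13%) and in endothelial nuclei (5.14%).

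Where the RNA of each gene sat differed among the genes. Of the kept nuclei, 9.45% were in the striatal gate, 54.5% were ungated and 9.03% were astroglia. Of all UMIs of Tac1, pooled over the 12 libraries, 77.9% came from the striatal gate, and of those of Drd2 67.5% and of Gpr6 64.8%. The share was 52.7% for Pdyn, 50.9% for Adora2a and 50.0% for Penk. For Drd1 it was 33.6%, with 52.8% in ungated nuclei. These pooled shares varied by library. They ran from 9.30% (WT 4) to 49.8% (Het 2) for Drd1, 27.8% (WT 4) to 77.9% for Drd2 and 43.5% (WT 4) to 90.7% for Tac1, and without WT 4 the lowest were 20.8%, 59.1% and 71.4%. From 0% in WT 4 they reached 100% for Gpr6 (WT 3, on 2 UMIs), 73.3% for Adora2a, 66.7% for Penk and 69.0% for Pdyn. Without WT 4 the lowest of these were 28.6%, 25.6%, 35.0% and 34.5%, so the ranges overlapped. Drd3 had 13.0% in the striatal gate, 48.0% in ungated nuclei and 17.2% in astroglia. Drd3 was also the gene whose values were most often fractions, which arise where reads matching several genes are divided, with such values in 32.5% of the nuclei that held any, against 0.255% to 1.93% for the other 7 genes.

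The D1-pathway genes were higher in D1-side nuclei and the D2-pathway genes in D2-side nuclei, with 7 of 8 called and Drd3 not. Over all 30998 genes tested between the sides, 1.16% were called higher and 1.07% lower on the D1 side. Drd1 averaged 35.1 ± 15.0 CPM on the D1 side and 1.14 CPM on the D2 side, 30.7 times higher by the means, and was higher in 12 of 12 libraries (mean log2(CPM + 1) difference 4.41, SD 1.27, exact sign-flip p = 0.000488, adjusted over all genes 0.0316). By library, Drd1 lay between 19.1 CPM (Het 3) and 79.0 CPM (WT 4) on the D1 side and between 0 and 5.95 CPM on the D2 side. The measured values did not overlap, but those of the D2 side came from 5 UMIs in all. A count of 0 there allows more in WT 4 and WT 6, where 3 counts would be 140 and 19.7 CPM. Without WT 4, whose D1-side value came from 4 UMIs in 18 nuclei, the D1-side mean of Drd1 was 31.1 ± 6.08 CPM and the ratio of the means 24.9. Tac1, the substance P precursor, averaged 75.9 ± 40.0 against 2.18 CPM (34.9 times, difference 5.19, SD 1.57, the same p values, 12 of 12 libraries), with 44.0 to 198 CPM on the D1 side and 0 to 7.85 CPM on the D2 side. Without WT 4 its D1-side mean was 64.8 ± 12.04 CPM and the ratio 27.3. Pdyn, the dynorphin precursor, averaged 11.9 ± 5.68 against 0.360 CPM and was seen in 1 D2-side nucleus (difference 3.23, SD 1.32, exact p = 0.000977, adjusted p = 0.0437, 11 libraries higher and WT 4 at 0 on both sides).

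On the D2 side, Drd2 averaged 373 ± 102 CPM against 9.71 CPM on the D1 side, 38.4 times higher by the means, in 12 of 12 libraries (mean log2(CPM + 1) difference -5.47, SD 0.96, exact p = 0.000488, adjusted p = 0.0316). Its lowest value on the D2 side, 93.5 CPM in WT 4, was above its highest on the D1 side, 29.4 CPM in WT 8. Without WT 4 its D2-side mean was 399 ± 54.6 CPM. Adora2a averaged 32.6 ± 16.6 against 1.70 CPM (19.2 times), Penk 21.7 ± 12.7 against 0.794 CPM (27.4 times) and Gpr6 8.47 ± 4.58 against 0.571 CPM (14.8 times). Each of these 3 was higher on the D2 side in 11 libraries and at 0 on both sides in WT 4, with differences of -3.47 (SD 1.47), -3.51 (SD 1.43) and -2.49 (SD 1.42), an exact p of 0.000977 and an adjusted p of 0.0437. Drd3 was at 1.54 and 1.602 CPM on the D1 and D2 sides (difference 0.16, SD 1.07, exact p = 0.613).

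**Figure D2:**
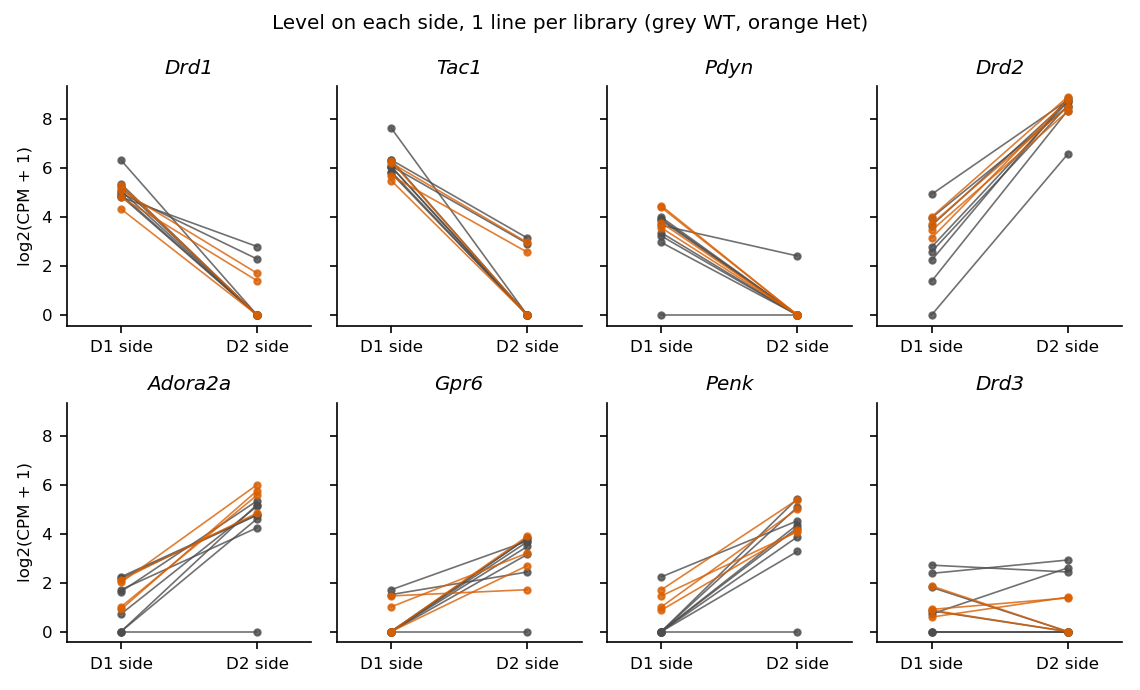
Level of each gene as log2(CPM + 1) in the D1-side and D2-side nuclei of each library, 1 line per library (8 WT, 4 Het). Lines for Drd1, Tac1 and Pdyn fall from the D1 to the D2 side, lines for Drd2, Adora2a, Gpr6 and Penk rise, and those for Drd3 go both ways.

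These calls were at the limit of what 12 libraries can give. With 11 libraries the smallest exact p is double that of 12. With any library but WT 4 left out, adjusted p values of the 7 genes lay between 0.0566 and 0.0812 and 0 of 8 were called. The share of all genes called in fits with 1 library left out was not counted. The loss of calls is therefore not a result about these genes. Over all such fits, that without WT 4 included, the 7 differences kept their sign. They lay within 4.24 to 4.63 for Drd1 and -5.62 to -5.34 for Drd2. Without WT 4, 7 were called (adjusted p = 0.0402 for each, by the same exact test). Why the calls held without that library only was not tested. Marker lists of other cell types also differed between the sides, with the summed list of caudal-eminence (CGE) interneurons at 1561 to 2173 CPM over WT libraries on the D1 side and 86.2 to 653 CPM on the D2 side, and that of medial-eminence (MGE) interneurons at 19.8 to 137 and 107 to 1543 CPM. The Cajal-Retzius list was at 1008 to 1395 and 46.8 to 296 CPM, and the oligodendrocyte list at 445 to 643 and 284 to 445 CPM. The Cajal-Retzius sum was mostly Reln, a gene at 858 CPM over the striatal gate. The list averaged 836 CPM in WT and 854 CPM in Het libraries there, and 2 of its 6 genes were at 0 on each side. Reln is also among the genes most like Drd1, given below. In nuclei gated by these lists, Drd2 was at 6.35 (CGE), 4.65 (MGE), 1.21 (Cajal-Retzius) and 5.99 CPM (oligodendrocyte). Drd1 was at 2.19, 1.74, 1.57 and 2.75 CPM in them. The part of such markers in the side values was not tested.

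The share of nuclei in which a gene was seen was low for most of these genes at this depth (median 2007 UMIs in the gate), and it parted the sides in the same direction as the levels. On the D1 side, Drd1 was seen in 6.78% of nuclei (95% exact binomial interval 6.08 to 7.54), Tac1 in 11.2% and Pdyn in 3.24%, with Drd2 in 1.54% and Adora2a in 0.384%. On the D2 side, Drd2 was seen in 45.9% (43.6 to 48.2), Adora2a in 7.13%, Penk in 4.25% and Gpr6 in 1.84%, with Drd1 in 0.262% and Tac1 in 0.472%. Intervals here cover counting error only.

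For comparison, excitatory nuclei (median 2188 UMIs) showed Drd1 in 0.711% and Drd2 in 0.401%, and astroglia (1368 UMIs) in 0.294% and 0.329%. The median was 2288 UMIs on the D1 side and 1862 on the D2 side. Thinned to 800 UMIs per nucleus, Drd1 was seen in 2.18% of D1-side nuclei and Drd2 in 25.3% of D2-side nuclei, and Drd2 in 0.729% of D1-side nuclei. Nuclei with genes of neither side showed Drd2 in 25.8% and Drd1 in 1.48%, and nuclei with genes of both sides showed Drd2 in 24.5% and Tac1 in 11.1%.

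Outside the striatal gate, Drd2 was seen in 53 of 117 cholinergic nuclei, 45.3% (36.1 to 54.8), in 10 of 12 libraries. These nuclei were gated by Chat and other genes of acetylcholine handling and had a median of 3554 UMIs, and thinned to 800 UMIs the share was 18.8%, against 25.3% on the D2 side. Their mean level of 327 ± 131 CPM (n = 5 libraries with 10 or more such nuclei, WT 2 and the 4 Het libraries) stood beside 373 ± 102 CPM on the D2 side over all 12 libraries. Adora2a, Penk, Tac1 and Pdyn were each seen in 0 of the 117, which by a limit of 3 counts allows up to 2.56% of such nuclei to hold a UMI and does not limit the share that expresses the gene. In the rest of the order for Drd2, neither-side nuclei followed at 222 ± 64.2 CPM and both-side nuclei at 148 ± 51.9 CPM, and microglia (11.7 ± 18.0), D1-side nuclei (9.71 ± 7.90) and ungated nuclei (7.49 ± 3.48) overlapped at the low end. Only 22 nuclei carried 2 or more of the dopamine neuron genes Th, Ddc, Slc6a3 and Slc18a2, and 3 of them held Drd2.

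Adora2a was seen in 55 of 1071 endothelial nuclei, 5.14% (3.89 to 6.63), in 11 of 12 libraries, with a mean of 22.9 ± 10.5 CPM, within the spread of the D2 side (32.6 ± 16.6 CPM) and of neither-side nuclei (19.3 ± 9.33 CPM). In the same endothelial nuclei (median 1762 UMIs) Drd2 was seen in 0.934%, and Penk and Gpr6 in 0 of 1071, which by the same limit allows up to 0.280% of nuclei with a UMI. Penk was at 6.58 ± 7.20 CPM in mural and fibroblast nuclei, seen in 0.759% of them, and next to the striatal gate at 7.67 ± 3.46 CPM. No gated class outside the striatal gate held Drd1 near its D1-side level. Ungated nuclei, 54.5% of those kept, held 52.8% of Drd1 UMIs. After D1-side nuclei came both-side nuclei (14.3 ± 11.6 CPM), neither-side nuclei (8.89 ± 6.42) and ungated nuclei (5.62 ± 1.65), and the differences between these neighbours were within their spread. Drd3 was highest in cycling nuclei, at 3.42 ± 4.20 CPM, and its levels in astroglia (2.56 ± 2.00), the striatal gate (1.45 ± 1.53) and ungated nuclei (0.852 ± 0.381) lay within that spread.

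Drd1 and Drd2 were almost never seen in the same striatal nucleus. Of 8902 nuclei, 377 held Drd1 and 1533 held Drd2, and 3 held both, where 62.6 were expected if the genes were seen independently in nuclei of the same library and similar depth (5 depth strata per library), a ratio of 0.0479. The number was below the expected one in 12 of 12 libraries and was 0 in 9 of them. The 3 nuclei came from 3 WT libraries and had a median of 2466 UMIs, 1 on the D1 side and 2 on the D2 side. With the nuclei marked as doublets kept, 5 of 9323 held both, with a median doublet score of 0.8.

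All 9 pairs of genes of the same pathway were seen together more often than expected, 460 nuclei against 165 over the pairs, and all 12 pairs across the pathways less often, 28 against 270. Within the D1 pathway, Drd1 and Tac1 shared 95 nuclei (45.2 expected, ratio 2.10), Drd1 and Pdyn 29 (11.96 expected) and Tac1 and Pdyn 38 (21.5 expected). Within the D2 pathway, Drd2 and Adora2a shared 137 nuclei (40.4 expected, ratio 3.39), Drd2 and Penk 88 (25.7 expected) and Drd2 and Gpr6 42 (13.0 expected). The pair with the highest ratio, 6.17, was Gpr6 and Penk, on 7 nuclei. Across the pathways, Drd2 and Tac1 shared 20 nuclei (108 expected, ratio 0.184), and Drd1 shared 0 with Adora2a (10.9 expected), 0 with Penk (7.67 expected) and 0 with Gpr6 (2.53 expected). Drd3 was seen with Drd1 in 4 nuclei (2.09 expected), with Drd2 in 4 (4.01 expected) and with Tac1 in 6 (3.67 expected). All these expected numbers are over the whole gate, both sides together. Within the D1 side, Drd1 and Drd2 shared 1 nucleus (4.89 expected), Drd1 and Tac1 83 (50.8 expected) and Drd2 and Adora2a 5 (0.391 expected). Within the D2 side, Drd1 and Drd2 shared 2 (2.47 expected) and Drd2 and Adora2a 93 (71.3 expected, ratio 1.30).

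**Figure D3:**
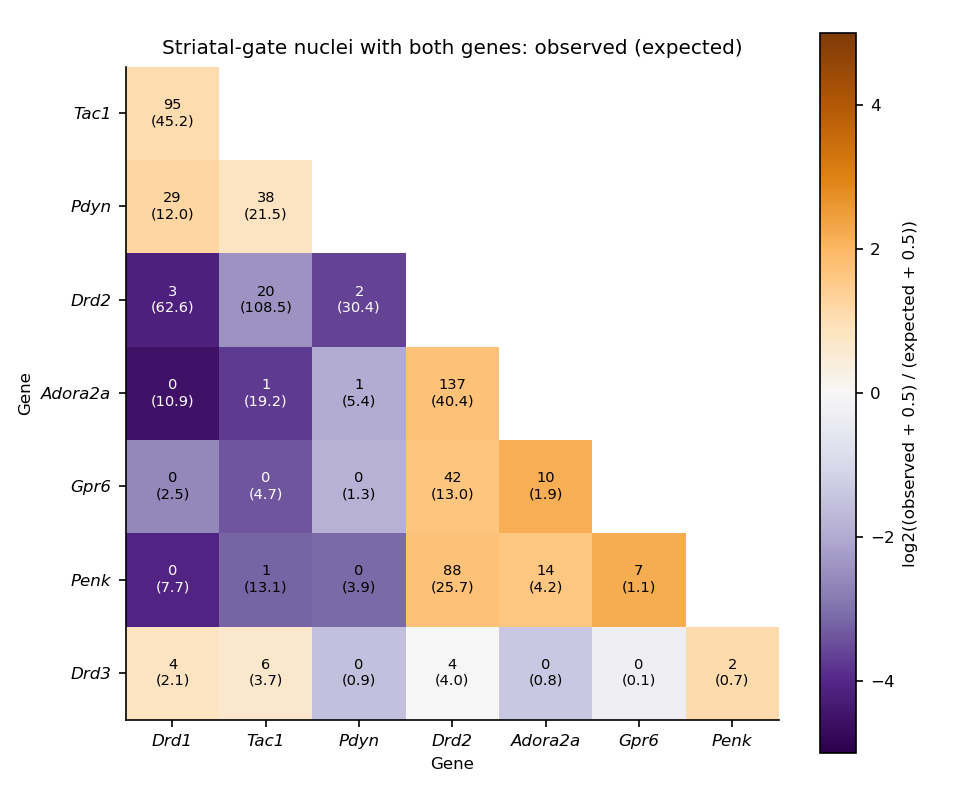
Number of striatal-gate nuclei in which each pair of genes was seen together, with the number expected at equal library and depth in brackets and colour for log2 of observed over expected after adding 0.5 to both. The blocks of same-pathway pairs lie above the expected number and the blocks across pathways below it, with 3 nuclei for Drd1 and Drd2 where 62.6 were expected.

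Of the 1052 nuclei with any D1-pathway gene and the 1707 with any D2-pathway gene, 26 had both kinds (194 expected). They had a median of 3063 UMIs against 2007 for all striatal nuclei and a median doublet score of 0.25 against 0.1, and 11 of them (42.3%) carried side genes of both sides, against 6.89% of all striatal nuclei. Nuclei with a D1-pathway gene only had a median of 3002 UMIs and a score of 0.15, and 8.58% carried side genes of both sides. For those with a D2-pathway gene only these were 2012 UMIs, 0.1 and 9.22%. With the nuclei marked as doublets kept, there were 30. The part of doublets in these nuclei was not tested. In ungated nuclei Drd1 and Drd2 were seen together in 4 (9.47 expected), in excitatory nuclei in 0 (0.272 expected) and in cholinergic nuclei in 1 (0.25 expected).

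Likeness to Drd1 and to Drd2 in the striatal gate is given as a description. It was the mean over libraries of a log2 ratio, after adding 1 CPM to both levels. The ratio was that of a gene's level in nuclei with the receptor gene to its level in those without. There were 1783 genes at 100 CPM or more. Only those of the same sign in every library used were ranked, 284 for Drd1 and 290 for Drd2. For Drd1 (377 nuclei, 8 libraries with 20 or more) the highest were Cdh18 at 1.47 (SD 0.30), Kctd16 at 1.20, Sorcs1 at 1.20, Reln at 1.19 and Gm28905 at 1.15, and the lowest Drd2 at -6.37, Ptprm at -4.09 and Grik3 at -3.41. For Drd2 (1533 nuclei, 11 libraries) the highest were Grik3 at 2.02, Ptprm at 2.01, Necab1 at 1.93, Utrn at 1.65 and Sgcz at 1.597, and the lowest Ebf1 at -4.01, Cntnap3 at -3.83 and Ikzf1 at -3.67. Ebf1 is a transcription factor gene of the direct pathway and was, like Grik3, among the genes that set the sides.

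Turning to genotype, the striatal gate held 10.9%, 9.43%, 8.24%, 1.30%, 6.86%, 7.21%, 9.97% and 7.53% of the kept nuclei in WT 1 to WT 8, and 8.80%, 14.9%, 9.41% and 12.2% in Het 1 to Het 4. The means were 7.68 ± 2.94% (SD, n = 8) and 11.3 ± 2.83% (n = 4), a difference of 3.67 percentage points (exact two-sided permutation p = 0.0606, smallest possible 0.00202). The 2 groups overlapped. Without WT 4, whose gate held 66 nuclei, the difference was 2.76 points (exact p = 0.0545). Among nuclei on 1 side, the D1 side made up 68.6 ± 4.40% in WT (62.1% to 75.1%) and 72.8 ± 2.69% in Het libraries (69.0%, 73.6%, 73.4% and 75.3%), a difference of 4.20 points (exact p = 0.113, and 3.27 points with exact p = 0.158 without WT 4). This share is not the ratio of the 2 neuron kinds. Ebf1 was at 1553 CPM in the gate and Grik3 at 171 CPM, and the gate marker Ikzf1 was seen in 32.6% of D1-side and 0.577% of D2-side nuclei. The neither-side nuclei left out of it held Drd2 in 25.8% and Drd1 in 1.48%.

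Het and WT were compared in the striatal gate, the D1 side, the D2 side, excitatory nuclei and all kept nuclei, and none of the 8 genes was called in any of these 5 by edgeR on counts summed per library (adjusted p under 0.05 and a log2 difference of at least 0.2 either way), nor by DESeq2. In the striatal gate 6 of the 8 passed the filter on low counts, 1 of them (Pdyn) had an unadjusted p under 0.05 and 0 were called, where 0% of 10833 genes were (644 at an unadjusted p under 0.05, 8 called by DESeq2). On the D1 side 4 passed, 0 were under that p and 0 were called, where 0.0226% of 8859 genes were. On the D2 side 2 passed, 1 (Adora2a) was under it and 0 were called, where 0% of 5007 genes were (272 under it, 1 called by DESeq2). None passed in excitatory nuclei, where 0% of 10329 genes were called (934 under it, 19 by DESeq2). Over all kept nuclei 8 of 8 passed, 3 (Pdyn, Adora2a and Tac1) were under it and 0 were called, where 0% of 20083 genes were (1994 under it, 16 by DESeq2).

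Drd2 was at 35.0 to 161 CPM (median 131) in the striatal gate of the WT libraries, the lowest in WT 4 and 113 CPM the next, and at 143, 125, 114 and 131 CPM in the Het libraries. The groups overlapped throughout (log2 difference -0.06, SE 0.13, edgeR adjusted p = 0.990). Drd1 was at 18.9 to 28.0 CPM (median 19.8) in WT and 20.9, 20.1, 13.9 and 27.3 CPM in Het libraries (log2 -0.04, SE 0.15, edgeR adjusted p = 0.997). Tac1 was at 34.8 to 70.0 CPM (median 47.3) and 48.2, 37.8, 31.0 and 58.2 CPM (log2 -0.04, SE 0.15, edgeR adjusted p = 0.996). For these 3 genes the Het values lay on both sides of the WT median. Penk was at 0 to 12.7 CPM (median 7.38) in WT and 7.31, 8.76, 7.16 and 10.5 CPM in Het libraries (log2 -0.01, SE 0.25), a difference whose sign changed with the setting. Gpr6 and Drd3 were too low for the test there, at 0 to 6.33 and 0 to 4.73 CPM in WT and 1.82 to 5.13 and 0.604 to 2.50 CPM in Het libraries. WT 4 had 0 UMIs of 5 of the genes in its 66 striatal nuclei, where 3 counts would be 21.0 CPM, so a count of 0 in it allows a level above that of each other library.

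**Figure D4:**
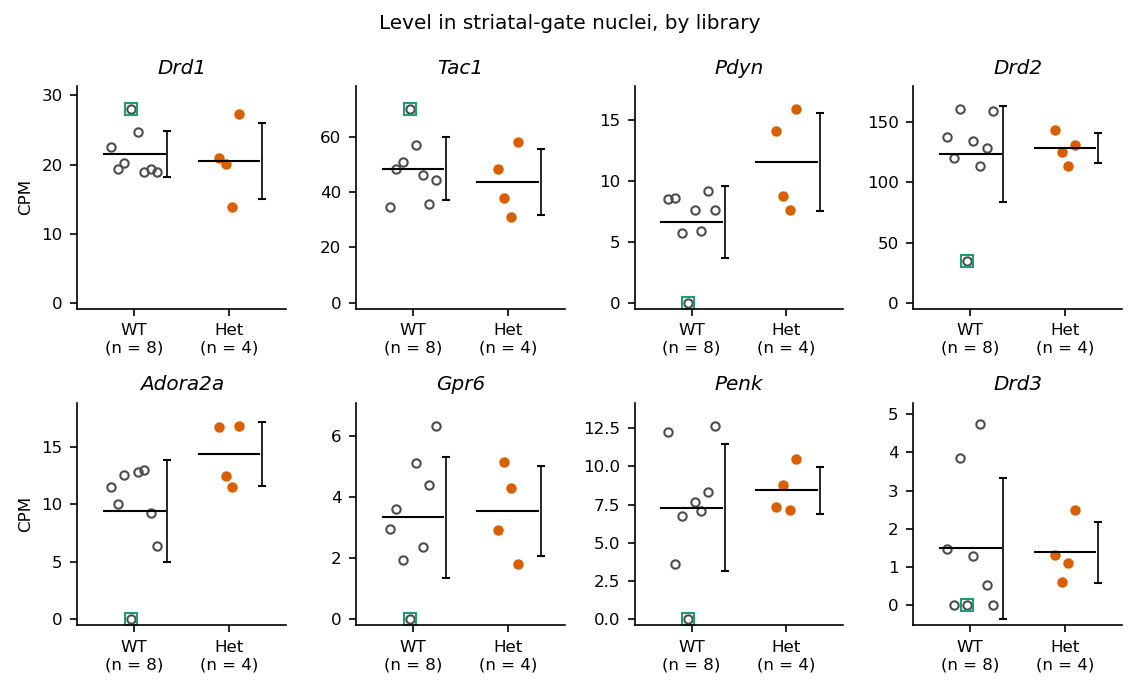
CPM of each gene in striatal-gate nuclei by library (open grey WT, n = 8; filled orange Het, n = 4; line for the mean, bar for the SD, green square for WT 4, which had 66 such nuclei). The groups overlap for Drd1, Drd2, Tac1 and Penk, and for Adora2a and Pdyn 2 Het libraries lie above the other 7 WT libraries, while WT 4 held 0 UMIs of either gene.

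Of the 6 genes tested in the striatal gate, Pdyn and Adora2a had the largest positive differences. In the striatal gate Pdyn was at 0 to 9.22 CPM (median 7.63) in WT and 14.1, 8.76, 7.64 and 15.9 CPM in Het libraries (log2 0.52, SE 0.23, edgeR adjusted p = 0.7998), and Adora2a at 0 to 13.0 CPM (median 10.8) and 16.7, 12.5, 11.5 and 16.8 CPM (log2 0.40, SE 0.20, edgeR adjusted p = 0.831). Het 1 and Het 4 were the high libraries for both genes. Without WT 4, where both were at 0, the lowest WT values were 5.78 CPM for Pdyn and 6.33 CPM for Adora2a, and the log2 differences 0.49 and 0.38. The difference of Pdyn was 0.34 without Het 4 and 0.25 with all deposited barcodes, and that of Adora2a 0.23 in males only. On the D2 side Adora2a was at 0 to 39.4 CPM (median 26.1) in WT and 52.9, 46.4, 27.6 and 62.7 CPM in Het libraries (log2 0.71, SE 0.25, edgeR adjusted p = 0.701). The 0 in WT 4 came from 11 nuclei, where 3 counts would be 140 CPM, and the next WT library was at 17.8 CPM (log2 0.68 without WT 4, edgeR adjusted p = 0.673). In the same nuclei the summed endothelial marker list (10 genes) was at 0 to 38.0 CPM in WT and 23.9 to 47.8 CPM in Het libraries (means 17.3 and 31.1), and the oligodendrocyte list (9 genes) at 284 to 445 and 454 to 477 CPM. On the D1 side the oligodendrocyte list was at 445 to 643 and 617 to 693 CPM, with overlap. The astroglia list had means of 208 and 269 CPM. Their part in the value of Adora2a was not tested. Drd2, in the same D2-side nuclei, was at 93.5 to 461 CPM (median 394) and 441, 363, 317 and 478 CPM (log2 0.03). On the D1 side Pdyn was at 0 to 14.9 CPM (from 6.79 CPM without WT 4) and 19.98, 12.6, 10.8 and 21.0 CPM (log2 0.38, edgeR adjusted p = 0.889, and 0.16 in males only, 0.17 with all deposited barcodes and 0.22 without Het 4).

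Over all kept nuclei both genes were higher in each of the 4 Het libraries than in each of the 8 WT libraries, which held for 0.598% of the 20083 genes tested. Adora2a was at 0.862 to 2.30 CPM (median 2.06) in WT and 2.87, 3.43, 2.85 and 3.13 CPM in Het libraries (log2 0.70, SE 0.19, edgeR adjusted p = 0.358), and Pdyn at 0.840 to 1.83 CPM (median 1.33) and 1.87, 2.60, 1.87 and 3.27 CPM (log2 0.82, SE 0.21, edgeR adjusted p = 0.358). Neither was called. Tac1, Penk, Gpr6 and Drd2 also had positive values there (log2 0.51, 0.56, 0.54 and 0.43), and Drd1 and Drd3 values near 0 (log2 -0.03 and -0.12). The share of striatal nuclei stood at 7.68% in WT and 11.3% in Het libraries beside these values, and more striatal nuclei and more RNA per nucleus cannot be told apart in a level over all nuclei.

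**Figure D5:**
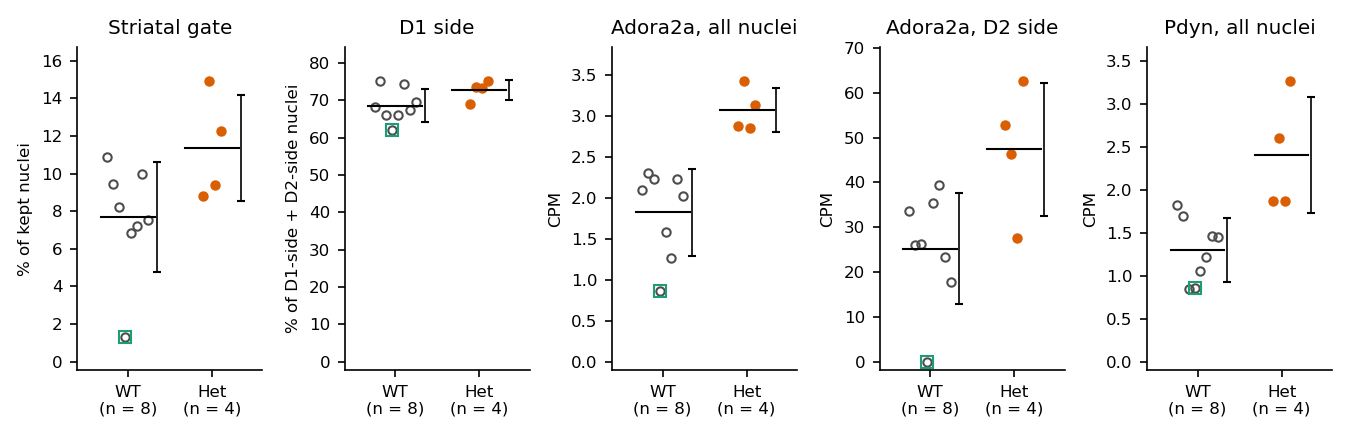
Striatal share of kept nuclei, D1-side share of striatal nuclei on 1 side, and CPM of Adora2a (all nuclei and D2 side) and Pdyn (all nuclei) by library, WT (n = 8) and Het (n = 4), with mean and SD. All 4 Het libraries lie above all WT libraries for Adora2a and Pdyn over all nuclei, and the groups overlap in the other 3 panels.

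The separation of Drd1 from Drd2 in single nuclei was seen in both genotypes, with 3 nuclei holding both against 32.9 expected in WT and 0 against 29.8 in Het libraries. The log2 ratio of observed to expected, with 0.5 nuclei added to both, averaged -2.30 ± 1.01 in WT and -3.90 ± 0.61 in Het libraries, a difference of -1.603 (exact permutation p = 0.0222, and -1.35 with exact permutation p = 0.0182 without WT 4). It did not pass 0.05 without Het 2 (-1.41, exact permutation p = 0.0606) or without Het 4 (-1.53, exact permutation p = 0.0545), nor thinned to 800 UMIs (-0.74, exact permutation p = 0.0626) or gated with 2 more marker UMIs (-0.92, exact permutation p = 0.124). In a library with 0 such nuclei this ratio is set by the expected number alone, which rises with the number of striatal nuclei. The plain ratio averaged 0.0799 ± 0.135 in WT and was 0 in each Het library (exact permutation p = 0.418), and for any D1-pathway with any D2-pathway gene the log2 difference was -0.58 (15 nuclei against 99.5 expected in WT, 11 against 94.6 in Het libraries, exact permutation p = 0.392).

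Of 33 other genes of these pathways, 0 were called between Het and WT by edgeR in any of the same 5 groups of nuclei. Of 11 other receptor genes of these pathways, dopamine receptor genes among them, 7 were tested in the striatal gate. Of those tested, 0 had an unadjusted p under 0.05 and their median log2 difference was 0.03 (all genes -0.00325). Cnr1, the cannabinoid receptor gene, was at 0.19 (SE 0.14, edgeR adjusted p = 0.906) and Tacr1, the substance P receptor gene, at 0.45 (SE 0.34, adjusted p = 0.915).

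Of 16 signal transduction genes, 14 were tested in the striatal gate with a median of -0.00166, and 1 had an unadjusted p under 0.05. This was Rgs2, a regulator of G-protein signalling, with a log2 difference of 0.60 (SE 0.16, edgeR adjusted p = 0.479). Rgs2 was at 0.45 (SE 0.18) on the D1 side, 0.88 (SE 0.29, edgeR adjusted p = 0.638) on the D2 side and 0.58 (SE 0.16, adjusted p = 0.358) over all nuclei. Pde1b, a phosphodiesterase gene, was at -0.16 in the striatal gate, and Pde10a at -0.21 on the D2 side (adjusted p = 0.903). All 6 peptide-processing genes were tested in the striatal gate, 0 were under that p and their median was 0.10. Pcsk2, which cleaves peptide precursors, was at -0.19 (SE 0.11, adjusted p = 0.870) there and -0.31 (SE 0.14, edgeR adjusted p = 0.860) on the D2 side, and Pam, which amidates peptides, at 0.13 in the striatal gate.

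Marker lists of other cell types within the striatal gate stood at 99.1 to 840 CPM in WT and 148 to 297 CPM in Het libraries for excitatory neurons (8 genes, 0 of them at 0) and at 0 to 28.9 and 27.1 to 31.5 CPM for microglia (11 genes). The oligodendrocyte list was at 447 to 598 CPM in WT and 563 to 617 CPM in Het libraries. Their part in the genotype values was not tested.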

How the data were processed

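Expected counts per gene and nucleus, deposited as 1 sparse matrix per library, were made by the authors with the ScaleRna pipeline on mm10 from a split-pool kit and nuclei were called by them. The labels' processing notes name Seurat 4.3.0. Reads that match several genes were divided, so 6.58% to 6.88% of entries are not whole. Libraries held 15439429 to 40784144 UMIs. Of 55335 gene IDs, 54587 matched GENCODE M21.

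The study's filter was applied (800 to 6000 UMIs, 300 to 3000 genes, mitochondrial share at most 1%, log genes over log UMIs at least 0.9), and the barcodes with the 5% highest doublet scores of each library were left out (the score is the share of artificial doublets, sums of 2 nuclei, among a nucleus's nearest neighbours). A nucleus entered a class with at least 3 UMIs from at least 2 list genes, a list share at least 2 times that over all nuclei, and an excess at least 2 times that of the next class. These limits were set after marker counts were seen, and the 8 genes and all lists were chosen with earlier results of these data known. A gene counted as detected at 1 UMI or more.

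Counts were summed per library and class and rounded, then tested with edgeR 4.0.16 (TMM, filterByExpr, genotype only, Benjamini-Hochberg adjustment within a class, R 4.3.3), with DESeq2 1.42.0 as an alternative. On simulated data edgeR recovered 85.1% of 2-fold changes in the striatal gate (10606 genes) and 86.6% on the D2 side (4808 genes). Of its calls there, 6.21% and 4.71% were genes left unchanged. The changed genes were drawn at random from all genes that passed the filter, so these rates do not give the power for the 8 genes. Class levels were compared by exact sign-flip tests paired by library on log2(CPM + 1), with p values adjusted over all genes tested. Adjustment over the 8 genes alone had been planned and is not given, since they were chosen with results known. Each p measures the spread between animals. Genotype shares were compared by exact permutation tests, all two-sided. Genes named were the 8 genes, the called genes of each pathway list or otherwise the 2 with the smallest p, and for Drd1 and Drd2 the 5 genes highest and 3 lowest in likeness. Alternatives tried were DESeq2, no filter on low counts, sex as a covariate, males only, the replicate block, leaving out each library, doublets kept, all barcodes with 300 UMIs, other gates, other co-detection rules and log2(CPM + 10). scikit-learn 1.9.0, scipy 1.17.1 and matplotlib 3.10.9 were used. Values of 1 receptor gene are not reported here.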

Additional observations from a re-analysis of the deposited data

Results flagged for a closer look

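Of 46 groups of values checked, 6 held a library far from the others of its group, and all 6 were WT 4. Chance alone flags about 1 group in 20. Its striatal share was 1.30% of kept nuclei, where the nearest WT library had 6.86%. In its 66 striatal nuclei Drd2 was at 35.0 CPM (nearest 113) and Pdyn at 0 CPM (nearest 5.78). In its 18 D1-side nuclei Drd1 was at 79.0 CPM (nearest 39.8) and Tac1 at 198 CPM (nearest 79.6), from 4 and 10 UMIs. In its 11 D2-side nuclei Drd2 was at 93.5 CPM (nearest 324), from 2 UMIs.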

How the results depend on the processing

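Of 866 values recomputed under an alternative, 737 kept their direction and their side of the threshold. None of the 8 genes was called between genotypes under any alternative. Signs of differences near 0 changed. Penk in the striatal gate (-0.01) was 0.0229 with DESeq2, 0.0151 without a filter on low counts, 0.0212 with sex as a covariate, 0.0989 with the replicate block, 0.183 with all deposited barcodes and 0.0674 with 2 more marker UMIs. With all deposited barcodes Drd2 was 0.0707 and Drd1 0.00802 there. Drd2 on the D2 side (0.03) was -0.0835 with the replicate block, -0.11 in males only and -0.00561 with 2 more marker UMIs. Drd1 over all nuclei (-0.03) was 0.00657 with sex, 0.00294 with the replicate block, 0.0327 with doublets kept and 0.102 with all deposited barcodes. Leaving out 1 library gave ranges of -0.135 to 0.193 for Penk, -0.198 to 0.0795 for Tac1 and -0.188 to 0.0947 for Drd1 in the striatal gate, -0.0627 to 0.122 for Drd2 on the D2 side, and -0.165 to 0.0982 for Drd1 and -0.308 to 0.0291 for Drd3 over all nuclei. The cause was not tested.

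The difference in striatal share ranged from 2.47 to 4.52 points with 1 library left out (exact permutation p = 0.0364 to 0.236), passing 0.05 without WT 1 (4.13 points, exact permutation p = 0.0364). The genotype difference in Drd1 and Drd2 co-detection ranged from -1.89 to -1.35 and did not pass without Het 2 (-1.41, exact permutation p = 0.0606), without Het 4 (-1.53, exact permutation p = 0.0545), with 2 more marker UMIs (-0.92), thinned to 800 UMIs (-0.74) and with the replicate block (-1.10, exact permutation p = 0.125, the smallest 4 pairs can give). It was -0.58 for any D1 with any D2 gene and -0.0799 as the plain ratio, both chosen after seeing the data. Of the 8 genes, the number called between the D1 and D2 sides ranged from 0 to 7 with 1 library left out (7 without WT 4, 0 without any other library, and the cause was not tested), and 7 of 8 were called between striatal and excitatory nuclei under each alternative. The share of all genes called in these alternatives was not counted.

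The numbers in the labels do not pair the animals. Deviations of the 4 pairs of equal sex and number correlated at -0.14, 0.09, 0.04 and 0.22, and a replicate block gave 1, 3, 7, 19 and 0 calls over all genes in the striatal gate, D1 side, D2 side, excitatory nuclei and all nuclei, against 0, 2, 0, 0 and 0. Without a filter on low counts these were 53, 30, 7, 228 and 0, with DESeq2 8, 10, 1, 19 and 16, and 112 excitatory genes were called in males only. Leaving out Het 4 gave 162 excitatory calls and 52 over all nuclei, with none of the 8 genes among the latter. Alternatives to the gate do not apply to all kept nuclei. Of the 8 genes, Gpr6, Drd3, Penk and Pdyn were seen in the fewest nuclei, with 112 to 344 holding each.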

Other observations

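Ungated nuclei, 54.5% of those kept, held 52.8% of all Drd1 UMIs. Drd1 averaged 5.62 CPM in them and 5.94 CPM over all kept nuclei. The ungated nuclei with Drd1 differed from the striatal ones in the genes seen with it. By the same likeness measure, over 631 ungated nuclei with Drd1 and 11 libraries, 193 genes of the same sign in every library were ranked. The highest were Hs3st4 at 1.61, Tle4 at 1.59, Cdh18 at 1.46, Htr1f at 1.35 and Zfpm2 at 1.30 on the log2 scale. Hs3st4, Tle4 and Htr1f are known from deep-layer cortical neurons, and Cdh18 was also highest for Drd1 in the striatal gate. For the 680 ungated nuclei with Drd2, 142 genes were ranked in this way. The highest were Ptprm at 2.24, Cacna2d3 at 1.66, Neto1 at 1.20, Pde4b at 1.14 and Astn2 at 1.10. Of these, Ptprm was also among the 5 highest for Drd2 in the striatal gate. These genes were chosen after their values were seen and carry no test.

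Adamts6 (log2 0.73, edgeR adjusted p = 0.0126) and A330008L17Rik (log2 -0.56, edgeR adjusted p = 0.0208) were the 2 genes called between Het and WT on the D1 side. Neither was called in the striatal gate as a whole, where 0 of 10833 genes were.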
